A study of Mus musculus with 2 samples.

Results

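The genes of antigen presentation by the major histocompatibility complex (MHC) were examined in whole lungs of C57BL/6 mice carrying Lewis lung carcinoma (LLC) cells. Members were all probe sets annotated to a symbol starting with H2-, the prefix of the mouse MHC, together with those of 9 other genes: B2m, Tap1, Tap2, Tapbp, Erap1, Nlrc5, Ciita, Cd74 and Cd1d1. This gave 76 of the 45037 probe sets used. Of the 76, 64 belonged to 1 gene each and stood for 32 of 18193 genes, and 12 were shared among H2- genes, whose near-identical sequences they cannot separate. A further 3 probe sets shared with genes outside the H2- group were left out, and all 3 lay below the intensity floor on both arrays. The rule for members uses names and functions and no values, but it was set with earlier results of these data known.

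The lungs came from mice 6 to 8 weeks old, 19 days after tail vein injection of 500000 LLC cells in 200 µL. The LLC line was derived from a lung carcinoma of a C57BL mouse. One group received LLC cells with an empty vector and the other LLC cells overexpressing TDAG8, the proton-sensing receptor encoded by Gpr65. Each group gave 1 RNA pool from 10 lungs, read on 1 Affymetrix array. With 1 array per group no test was possible and no value has an error from replicates. Every difference below describes these 2 pooled RNAs. The labels name neither the promoter of the transgene nor whether the cells were 1 clone. Whole lung holds tumour cells, immune cells and resident lung cells together, and fewer cells of a type and less RNA per cell cannot be told apart. Host and tumour both derive from C57BL mice and have MHC genes of the same haplotype, so these probe sets read the RNA of both together. All 11 genes of the alveolar type 2 list lay above the floor on both arrays.

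MHC class I molecules are carried by nearly all nucleated cells and show peptides from the cell's own cytosol to CD8+ T cells. Each consists of a heavy chain and the light chain beta-2-microglobulin, and is loaded in the endoplasmic reticulum with peptides cut by the proteasome and pumped in by the TAP transporter. MHC class II molecules are made mainly by dendritic cells, macrophages and B cells, and in mouse lung also by alveolar type 2 cells. They are pairs of an alpha and a beta chain, escorted by the invariant chain, and show peptides of ingested proteins to CD4+ T cells. Interferon gamma raises the expression of both classes, through the transactivators NLRC5 for class I and CIITA for class II.

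The values are intensities on a linear scale in arbitrary units, given as deposited. Differences are log2 ratios, TDAG8 array over vector control array, centred on its median over the genes that both arrays read above the floor. That median was -0.06. The floor equalled an array's own median intensity, which was 26.3 for the vector control and 24.3 for TDAG8. Because of the centring, an intensity that was slightly lower can have a log2 ratio slightly above 0. A gene read by more than 1 probe set is represented by that of highest mean log2 intensity, with the others given beside it.

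Of the 32 antigen presentation genes 23 lay above the floor on at least 1 array. None of these was at least 2-fold higher or lower, against 5.41% of the 11949 measured genes of the array that were 2-fold higher and 1.19% that were 2-fold lower. With 23 genes a count of 0 is close to these shares and is no result about the group. The median log2 ratio of the 23 genes was 0.11, with all measured genes at a median of -0.00094. In all, 15 of the 23 genes lay above 0, or 65.2%, against 49.9% of all measured genes. The range ran from -0.82 for H2-Ob to 0.94 for Nlrc5, and 90.03% of all measured genes lay within that range. On the log2 scale 13 of the 23 lay within 0.25 of 0, as did 38.8% of all measured genes. At a limit of 1.5-fold, added after the values were seen, 3 genes were higher and 3 lower. Each is 13.0% of the 23, close to the 14.4% and 12.1% of all measured genes past that limit in the same direction, so these counts are no result about the group either. Counted by probe set, 49 of the 76 were measured and none was 2-fold different, against 4.68% of all measured probe sets 2-fold higher and 1.13% 2-fold lower. The 3 higher genes were Nlrc5, Tap1 and Ciita, and the 3 lower ones H2-Ob, H2-DMb2 and H2-Oa.

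**Figure D1:**
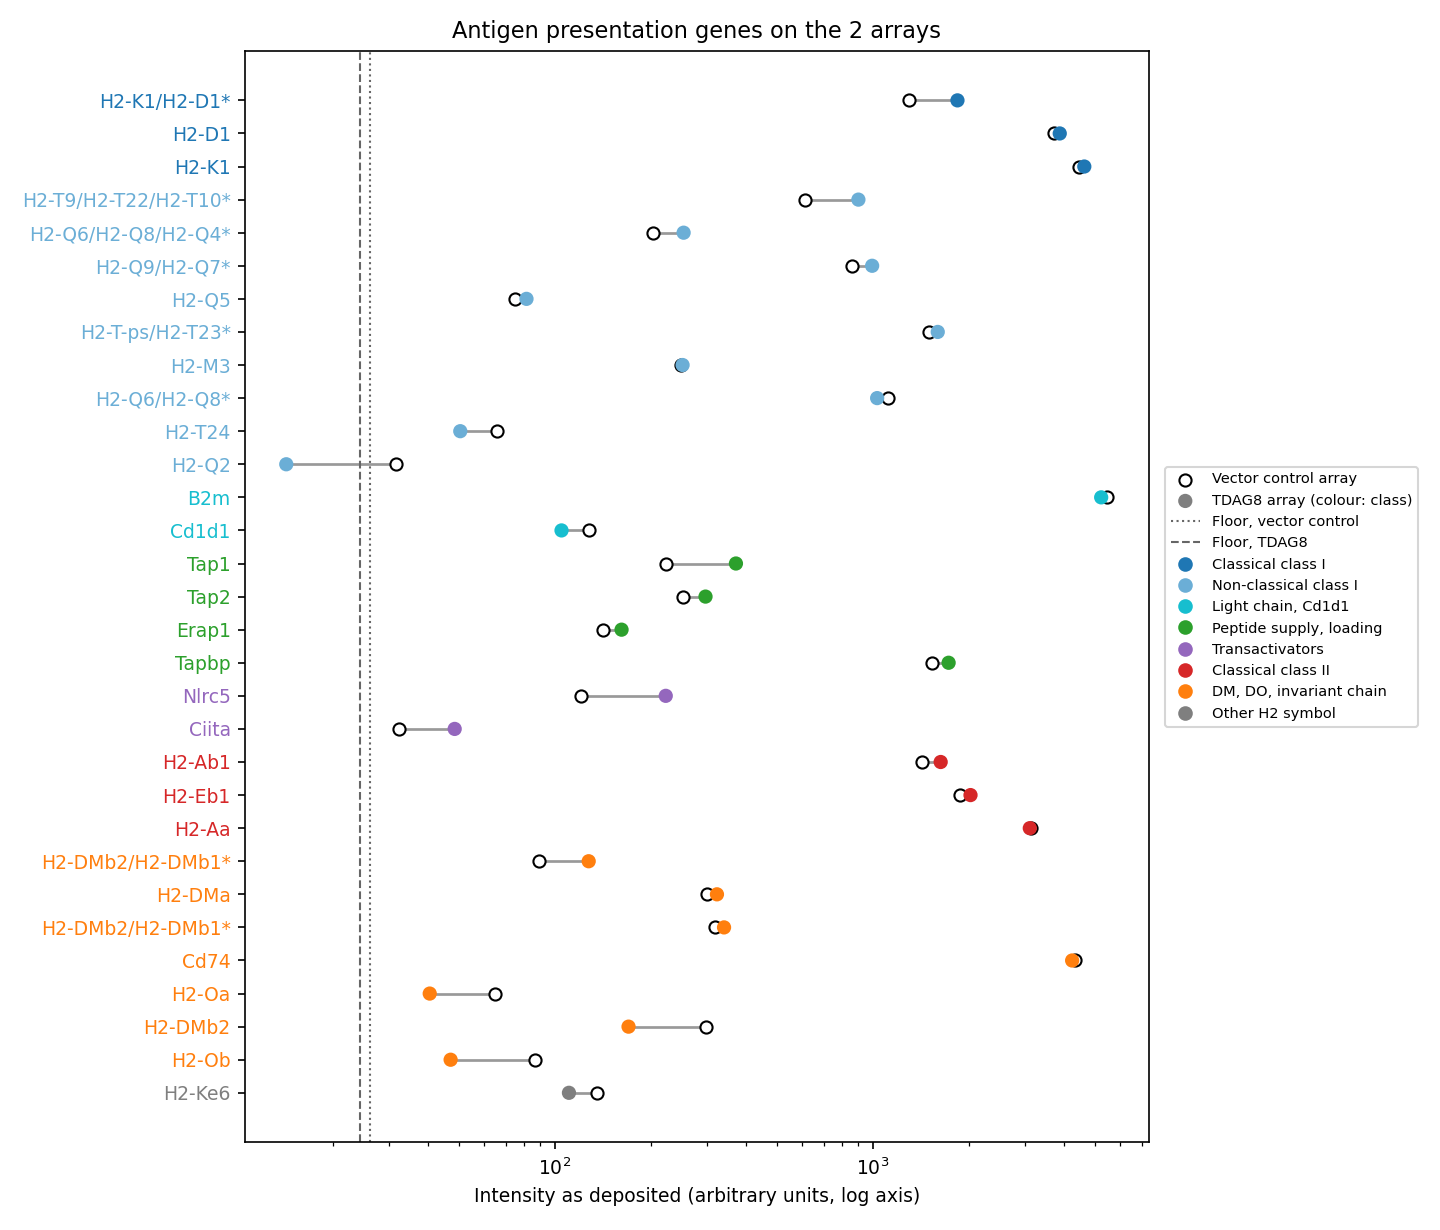
Intensity as deposited (arbitrary units, log axis) of each member gene, and of each probe set shared among H2- genes (marked by an asterisk), on the vector control array (open circles) and the TDAG8 array (filled circles, coloured by class); 1 array per group, so there are no error bars. Most pairs nearly coincide, Nlrc5 goes from 121 to 223 and H2-Ob from 86.7 to 47.0.

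Class I heavy chains come first. C57BL/6 mice have the classical heavy chain genes H2-K1 and H2-D1, which present peptides to CD8+ T cells. H2-K1 read 4452.5 on the vector control array and 4617.9 on the TDAG8 array, a log2 ratio of 0.11. H2-D1 went from 3700.8 to 3865.9, a log2 ratio of 0.12. By these probe sets both classical genes were nearly level between the arrays. B2m, the light chain that every class I heavy chain needs, went from 5462.1 to 5218.2, a log2 ratio of -0.0074, and its second probe set was at 0.12. Light and heavy chains thus stayed within 0.25 of 0 by the probe sets that stood for them.

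The other probe sets of the classical genes gave a wider range. All 4 probe sets of H2-K1 and 5 of 9 of H2-D1 lay above the floor on both arrays, and 1 more was shared between both genes. All 10 had log2 ratios above 0, from 0.11 to 0.83, with a median of 0.29, against 48.7% of all measured probe sets above 0. Another H2-K1 probe set went from 966.5 to 1648.4, 1.78-fold, and the shared one from 1295.1 to 1843.6, 1.48-fold. One of H2-D1 went from 47.0 to 77.4, 1.71-fold, and the others of H2-D1 lay between 0.12 and 0.31 on the log2 scale. The 2 probe sets with the smallest log2 ratios were those that stood for the genes. The spread between probe sets of 1 gene, 0.72 for H2-K1 and 0.66 for H2-D1 on the log2 scale, was thus several times the log2 ratio of either gene. Most of these probe sets have a name that marks possible sharing of sequence with other genes, so the 10 are not independent readings.

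The non-classical class I genes present special ligands or serve other receptors. One probe set shared by H2-T9, H2-T22 and H2-T10 went from 612.5 to 899.9, a log2 ratio of 0.61 or 1.53-fold. This was the highest among the shared probe sets. A second one of these genes read 22.5 and 17.6, below the floor on both arrays. The T22 and T10 proteins are bound by gamma delta T cells and carry no peptide. H2-T23 encodes Qa-1, which engages the CD94/NKG2A receptor of natural killer cells. One probe set that it shares with H2-T-ps went from 1499.3 to 1598.3, a log2 ratio of 0.15. The other shared by this pair read 16.3 and 15.9, below the floor on both arrays. The Qa-2 genes H2-Q9 and H2-Q7 shared a probe set that went from 860.5 to 994.0, at 0.27. The probe set shared by H2-Q6, H2-Q8 and H2-Q4 was at 0.37, whereas one shared by H2-Q6 and H2-Q8 alone went from 1118.8 to 1030.7, at -0.06. H2-M3, which presents formylated peptides of bacteria and mitochondria, went from 248.9 to 252.0, at 0.08.

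Single-gene values for the remaining class I members were dim. H2-Q5, listed by RefSeq as a transcribed pseudogene, went from 74.8 to 81.4, a log2 ratio of 0.18. Its second probe set lay below the floor on both arrays. H2-T24 went from 65.7 to 50.4, at -0.32. H2-Q2 went from 31.7 to below the floor, at least 1.25-fold lower. With the floor at the 30th percentile its log2 ratio was a measured value of -1.07, the only member past 2-fold under any alternative floor. H2-Bl, H2-M9, H2-M10.1, H2-Q10, H2-T3 and H2-T18 lay below the floor on both arrays and have no ratio. The same holds for H2-D4, a symbol that was left unclassified and not counted as class I. Cd1d1, a class I-like molecule outside the MHC that presents lipids to NKT cells, went from 128.4 to 104.9, at -0.23, and its second probe set was at -0.19.

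**Figure D2:**
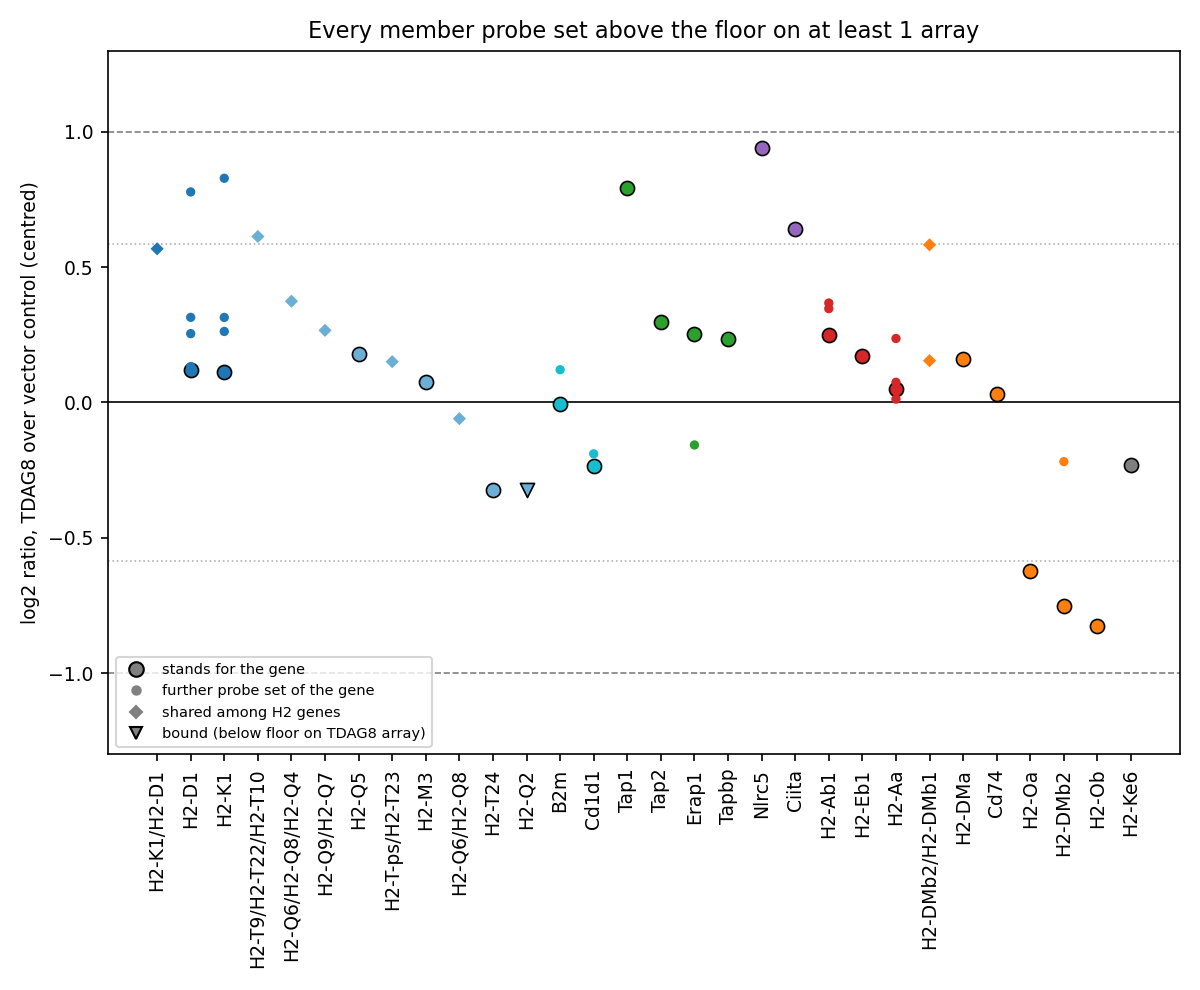
log2 ratio of TDAG8 over vector control for each of the 49 member probe sets above the floor on at least 1 array; large outlined points stand for the gene, small points are its further probe sets, diamonds are shared among H2- genes and the triangle is a bound. Dashed lines mark 2-fold and dotted lines 1.5-fold; H2-K1 spans 0.11 to 0.83, and H2-Ob, H2-DMb2 and H2-Oa form the lower end.

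The 4 genes that supply and load peptides had log2 ratios above 0 by the probe sets that stood for them. Tap1, a subunit of the peptide transporter, went from 223.0 to 370.8, a log2 ratio of 0.79 or 1.73-fold, and its other 3 probe sets lay below the floor on both arrays. Its partner subunit Tap2 went from 252.3 to 297.5, at 0.30. Tapbp, or tapasin, which bridges TAP and the heavy chain, went from 1529.2 to 1729.2, at 0.24 by either of its probe sets. Erap1, which trims peptides in the endoplasmic reticulum, was at 0.25 by one probe set and -0.16 by the other, so its direction was not settled. Nlrc5, the class I transactivator, went from 120.9 to 223.1 and had the highest log2 ratio of the 23 genes, 0.94 or 1.92-fold. Of all measured genes 6.19% had a log2 ratio at least as high as that of Nlrc5, and 8.76% one at least as high as that of Tap1. Nlrc5 was read by 1 probe set.

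Promoters are shown for the class I genes whose probe sets spanned the range from level to higher, with the control letters found next to their starts. The sequences are RefSeq's, build GRCm38.p6, the 250 bases before the first listed start. Of 21 members and shared-probe genes looked up, 17 had an entry. The table has none for Nlrc5, Ciita, Tap2 and H2-Ab1. The H2-K1 window lies at chr17:34000348-34000597 on the minus strand and that of H2-D1 at chr17:35262844-35263093 on the plus strand. The H2-T22 window lies at chr17:36042743-36042992 on the minus strand and that of Tap1 at chr17:34187306-34187555 on the plus strand. Capitals mark the letters GGGGATTCCC, a kB element, TTTCACTT, a part of the interferon-stimulated response element, and TGATTGG or its complement CCAATCA, a Y box. The letters were chosen after the sequences were read and are spelled as they stand in H2-K1 and H2-Eb1. That H2-K1 holds GGGGATTCCC and TTTCACTT was thus fixed in advance, and other spellings were not searched.
H2-K1: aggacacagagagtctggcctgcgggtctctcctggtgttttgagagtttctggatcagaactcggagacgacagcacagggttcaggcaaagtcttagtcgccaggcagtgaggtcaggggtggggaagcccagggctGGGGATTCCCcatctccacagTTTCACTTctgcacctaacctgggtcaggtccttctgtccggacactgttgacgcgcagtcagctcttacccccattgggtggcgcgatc
H2-D1: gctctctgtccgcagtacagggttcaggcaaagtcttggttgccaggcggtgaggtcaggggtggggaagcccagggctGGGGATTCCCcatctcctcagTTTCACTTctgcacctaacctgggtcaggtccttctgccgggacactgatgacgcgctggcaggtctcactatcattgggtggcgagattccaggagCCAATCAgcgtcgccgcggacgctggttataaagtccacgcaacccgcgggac
H2-T22: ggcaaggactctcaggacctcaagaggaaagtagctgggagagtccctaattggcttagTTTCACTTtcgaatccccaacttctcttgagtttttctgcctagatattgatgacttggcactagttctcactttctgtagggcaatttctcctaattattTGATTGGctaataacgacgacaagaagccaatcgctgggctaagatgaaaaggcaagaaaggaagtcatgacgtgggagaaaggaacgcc
Tap1: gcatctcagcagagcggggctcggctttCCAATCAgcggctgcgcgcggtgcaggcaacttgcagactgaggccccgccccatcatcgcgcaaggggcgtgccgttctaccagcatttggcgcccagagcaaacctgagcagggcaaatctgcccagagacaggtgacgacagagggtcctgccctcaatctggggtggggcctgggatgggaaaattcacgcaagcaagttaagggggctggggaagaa
Both strands were searched and no match overlapped another. Of 27025 promoters 0.0814% hold GGGGATTCCC, 1.44% hold TTTCACTT and 7.65% hold TGATTGG. The first 2 occur together in 4 promoters, those of H2-K1, H2-D1, H2-Q6 and H2-Q7. The H2-T22 window holds TTTCACTT at -191 to -184 from the start without GGGGATTCCC. The Tap1 window holds neither in this exact spelling, which does not show that it lacks such elements. It shares 225 of its 250 bases with the window before Psmb9, a subunit of the immunoproteasome that is transcribed in the opposite direction. Psmb9 went from 348.8 to 447.5, a log2 ratio of 0.42, beside 0.79 for Tap1. The matches are descriptions of these windows and not measured sites.

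Classical class II chains were close to level as well. H2-Aa and H2-Ab1 encode the alpha and beta chain of the A molecule, the only class II molecule on the surface of C57BL/6 cells. H2-Aa went from 3129.1 to 3112.5, a log2 ratio of 0.05 after centring. Its other 3 probe sets were between 0.01 and 0.24. H2-Ab1 went from 1430.5 to 1632.5, at 0.25, and its other 2 probe sets were at 0.35 and 0.37. H2-Eb1, the beta chain of the E molecule, went from 1873.2 to 2026.2, at 0.17. All 8 probe sets of these genes lay above 0, with a median of 0.20, against 48.7% of all measured probe sets above 0. None reached 1.5-fold, against 13.1% of all measured probe sets 1.5-fold higher and 11.1% 1.5-fold lower. With 8 probe sets this count is no result about these genes.

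The E alpha gene is a special case in this strain. C57BL/6 mice carry a deletion in the H2-Ea promoter and make no E alpha chain. All 3 probe sets of H2-Ea lay below the floor on both arrays, at 4.7 or less. Such readings do not identify the strain. H2-Eb2 was also below the floor on both arrays.

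The proteins that escort class II and edit its peptides went apart. Cd74, the invariant chain, which blocks the groove until the endosome, went from 4311.9 to 4228.9, a log2 ratio of 0.03. H2-DMa, the alpha chain of the DM editor that removes the invariant chain fragment, went from 300.9 to 323.2, at 0.16. The DM beta chain is encoded by the neighbouring genes H2-DMb1 and H2-DMb2. H2-DMb2 went from 299.0 to 170.4, a log2 ratio of -0.75 or 1.68-fold lower, and its other probe sets were at -0.76 and -0.22. The 2 probe sets shared by H2-DMb2 and H2-DMb1 were on the other side of 0, at 0.15 and 0.58. No probe set read H2-DMb1 alone, so the 2 genes could not be fully separated. H2-Ob and H2-Oa encode the DO molecule, an inhibitor of DM found mainly in B cells. H2-Ob went from 86.7 to 47.0, at -0.82 or 1.77-fold lower, and H2-Oa from 64.8 to 40.4, at -0.62 or 1.54-fold lower. Each was read by 1 dim probe set. With the floor at the 65th percentile the TDAG8 values fell below it, and the ratios became bounds of -0.50 for H2-Ob and -0.08 for H2-Oa. With an offset in place of the floor H2-Oa was at -0.43, under 1.5-fold. An offset shrinks the ratio of any dim probe set, so that value says little about stability. Of all measured genes 3.79% had a log2 ratio as low as that of H2-Ob.

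Ciita, the class II transactivator, was dim on both arrays and went from 32.3 to 48.4, a log2 ratio of 0.64 or 1.56-fold. In the vector control it was close to the floor, and its other 2 probe sets lay below the floor on both arrays. With an offset in place of the floor the log2 ratio of Ciita was 0.38, which is under 1.5-fold, a shrinkage that the offset brings to any dim probe set. With the floor at the 65th percentile Ciita was below it on both arrays. H2-Ke6, known also as Hsd17b8, is a dehydrogenase gene within the MHC and has no part in antigen presentation. It went from 135.2 to 110.7, at -0.23.

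The promoters of H2-Eb1 and H2-Ob are shown because these genes share the class II control letters, while their log2 ratios were 0.17 and -0.82. Both windows lie on the plus strand of build GRCm38.p6, that of H2-Eb1 at chr17:34305617-34305866 and that of H2-Ob at chr17:34238655-34238904. Capitals mark AGCAACNNATGATG, an X box, where N is any base, and TGATTGG, a Y box. The X box letters are those that both promoters share.
H2-Eb1: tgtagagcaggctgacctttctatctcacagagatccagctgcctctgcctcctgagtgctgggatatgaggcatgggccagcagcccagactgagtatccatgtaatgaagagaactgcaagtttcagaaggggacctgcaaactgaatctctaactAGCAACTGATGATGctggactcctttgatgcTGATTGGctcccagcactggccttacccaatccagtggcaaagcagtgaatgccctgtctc
H2-Ob: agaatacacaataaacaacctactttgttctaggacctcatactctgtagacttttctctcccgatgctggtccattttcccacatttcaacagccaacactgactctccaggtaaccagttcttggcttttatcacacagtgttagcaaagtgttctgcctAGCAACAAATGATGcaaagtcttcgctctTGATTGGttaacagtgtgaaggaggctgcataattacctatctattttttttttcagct
Because the X box letters were taken from these 2 promoters, that both hold them was fixed in advance. Of 27025 promoters no other holds this exact spelling, which leaves 2 or 0.0074%. Both also hold the Y box. Windows of H2-Aa, H2-Oa, H2-DMb1 and H2-DMb2 hold the Y box letters without this spelling of the X box. Other spellings of the X box were not searched.

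Class I and class II were then set side by side. The 6 measured class I heavy chain genes had a median log2 ratio of 0.09, with 4 of 6 above 0. The 8 measured class II genes, invariant chain included, had a median of 0.04, with 5 of 8 above 0. The difference of 0.05 has no error and is small beside the spread within either class, -0.33 to 0.18 for class I and -0.82 to 0.25 for class II. The low end of class I is the bound of H2-Q2, and the lowest measured value was -0.32, for H2-T24. Its high end is H2-Q5, the transcribed pseudogene. Over all probe sets, shared ones included, a choice added after the values were seen, the medians were 0.25 for 19 class I probe sets and 0.07 for 17 class II probe sets. The corresponding median of all measured probe sets was -0.02. Of the 19 class I probe sets 16 lay above 0, and of the 17 class II probe sets 12. Over all probe sets 48.7% lay above 0.

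**Figure D3:**
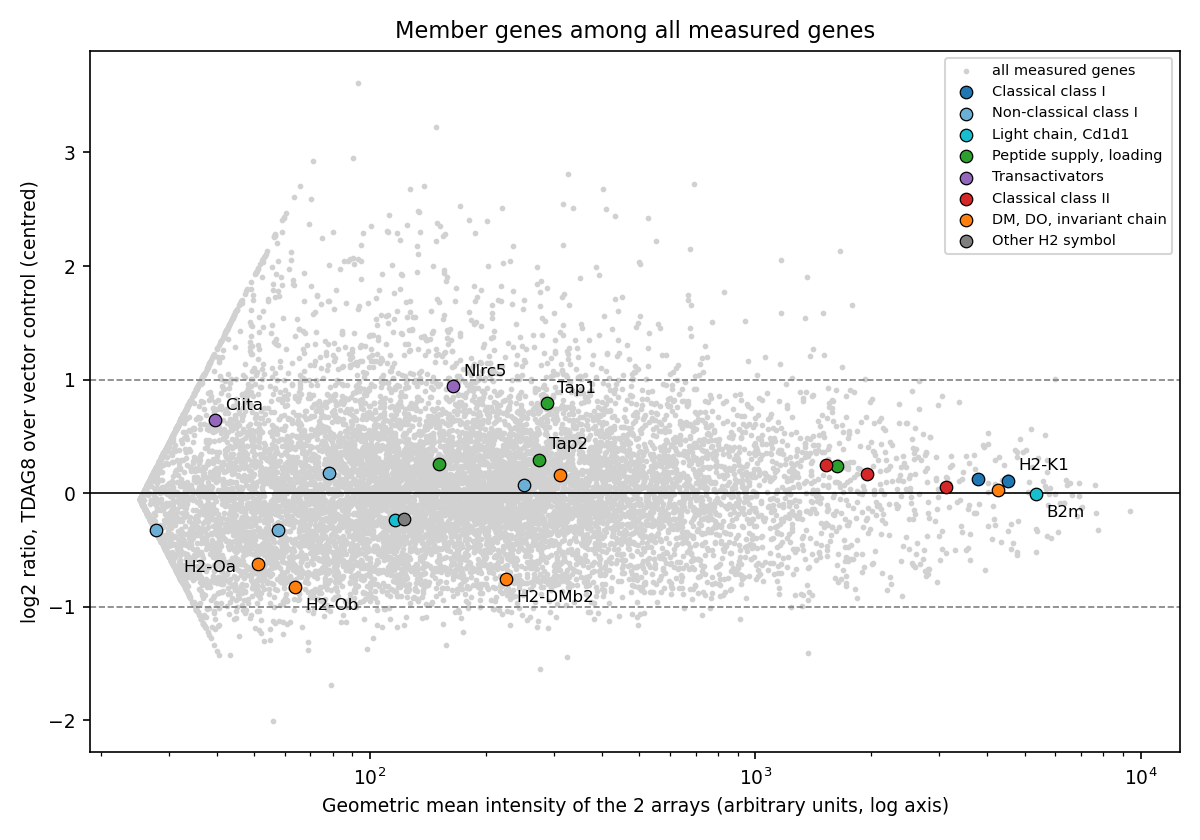
log2 ratio of TDAG8 over vector control against the geometric mean intensity of both arrays (arbitrary units, log axis) for the 11949 measured genes (grey) and the 23 member genes (coloured by class), 1 array per group. All members lie between the dashed 2-fold lines, with Nlrc5 at 0.94 and H2-Ob at -0.82; the slanted edges at the left come from the intensity floor.

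Other genes of the pathway were described from lists chosen by function. For comparison, 49.9% of all measured genes lay above 0. Of the 4 measured immunoproteasome and activator genes all 4 were above 0, with a median log2 ratio of 0.49. Psmb8, a catalytic subunit, went from 556.8 to 817.6, at 0.61, Psmb10, another, was at 0.55 and Psme1, a subunit of the proteasome activator, at 0.14. The 6 chaperones and channel subunits of the endoplasmic reticulum had a median of 0.13, with Sec61a1, the channel subunit, at 0.37 and Hspa5, the chaperone BiP, at 0.25. None of these 10 genes was 2-fold different, against 5.41% of all measured genes 2-fold higher and 1.19% 2-fold lower. With 10 genes this count is close to these shares. The 7 genes of the class II compartment had a median of 0.52, with 6 of 7 above 0. Cathepsin L (Ctsl), a protease, went from 1920.9 to 3663.2, at 0.99 or 1.99-fold. Lgmn, an endopeptidase that acts on antigens, was 1.78-fold higher and Cst3, a cathepsin inhibitor, was at -0.17. Ctsl and Lgmn had the 2 largest differences of the 7. Their log2 ratios exceeded those of Cd74 and of every measured classical class II chain. Among 12 factors that bind MHC promoters, 8 were above 0 and the median was 0.08. Spi1, the myeloid factor PU.1, was at 0.68, Rfxank, a subunit of the X box factor RFX, went from 50.3 to 32.1, at -0.59, and Irf1 was at 0.08.

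Markers of the cells that carry MHC moved in different directions on the same arrays. The 16 interferon-stimulated genes that are no members were all above 0, had a median log2 ratio of 0.67 and included 6 past 2-fold. For this and the lists that follow, 49.9% of all measured genes were above 0, 5.41% 2-fold higher and 1.19% 2-fold lower. Oas1a was at 1.58, Zbp1 was 2.66-fold higher, and Gbp2 was at 0.61. Among 11 monocyte and macrophage markers, whose median was 1.20, 10 were above 0 and 7 past 2-fold. Their summed intensity went from 3756.6 to 6584.5, with Itgam at 3.32-fold and Fcgr1 at 3.28-fold, while Csf1r was at 0.20. The classical class II chains lay between 0.05 and 0.25, below that median of 1.20 and beside 0.20 for Csf1r. The part of macrophages in their log2 ratios was not tested. All 8 measured B cell markers were below 0, with a median of -0.54, and the summed intensity of all 10 listed went from 902.7 to 610.4. Ms4a1, the B cell antigen CD20, went from 156.0 to 96.0, Ebf1 was 2.46-fold lower and Fcmr 1.95-fold lower, and neither array read Cr2 or Pax5 above the floor. The B cell list moved in the direction of H2-Oa and H2-Ob, and its part in their log2 ratios was not tested.

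The other cell types that could contribute are given by their lists, with sums over every listed gene, also those below the floor. Of 10 dendritic cell markers 8 were below 0, with a median of -0.28, but their summed intensity went from 1270.6 to 2097.8. Within that list Fscn1, an actin bundler that tumour cells also make, was 4.44-fold higher and the chemokine gene Ccl17 was 2.16-fold lower. Without Fscn1, a choice made after the values were seen, the sum went from 943.5 to 703.8. Of the 13 listed dendritic markers, Flt3, Siglech and Xcr1 were read above the floor by neither array, and the other 10 by both. The alveolar type 2 list had a median of -0.43, all 11 genes below 0, a summed intensity from 40500.5 to 29949.0, and Napsa and Lpcat1 at -0.58 and Sftpc at -0.12. Of 8 alveolar macrophage markers 7 were below 0, with a median of -0.70 and a summed intensity from 5173.3 to 3107.0. In that list Fabp1 was 2.19-fold lower, Chil3 was at -0.71 and Marco was 2.16-fold higher. All 12 endothelial genes were below 0, with a median of -0.70 and a summed intensity from 14347.1 to 8503.6, with Plvap at -0.89, Ramp2 at -0.85 and Calcrl at -0.65. The 12 measured T and NK cell markers had a median of 0.11 and a summed intensity of 1098.6 and 1100.6. Zap70 was 2.46-fold higher there, Cd8a was at 0.68 and Gzma at -0.49, and Cd4 and Ncr1 were below the floor on both arrays. All 11 markers of dividing cells were at least 2-fold higher, from 1123.0 to 5305.3 in summed intensity, with Cdc20 at 5.38-fold, Bub1 at 6.52-fold and Cdk1 at 5.83-fold. The part of these lists in the log2 ratios of the MHC genes was not tested.

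**Figure D4:**
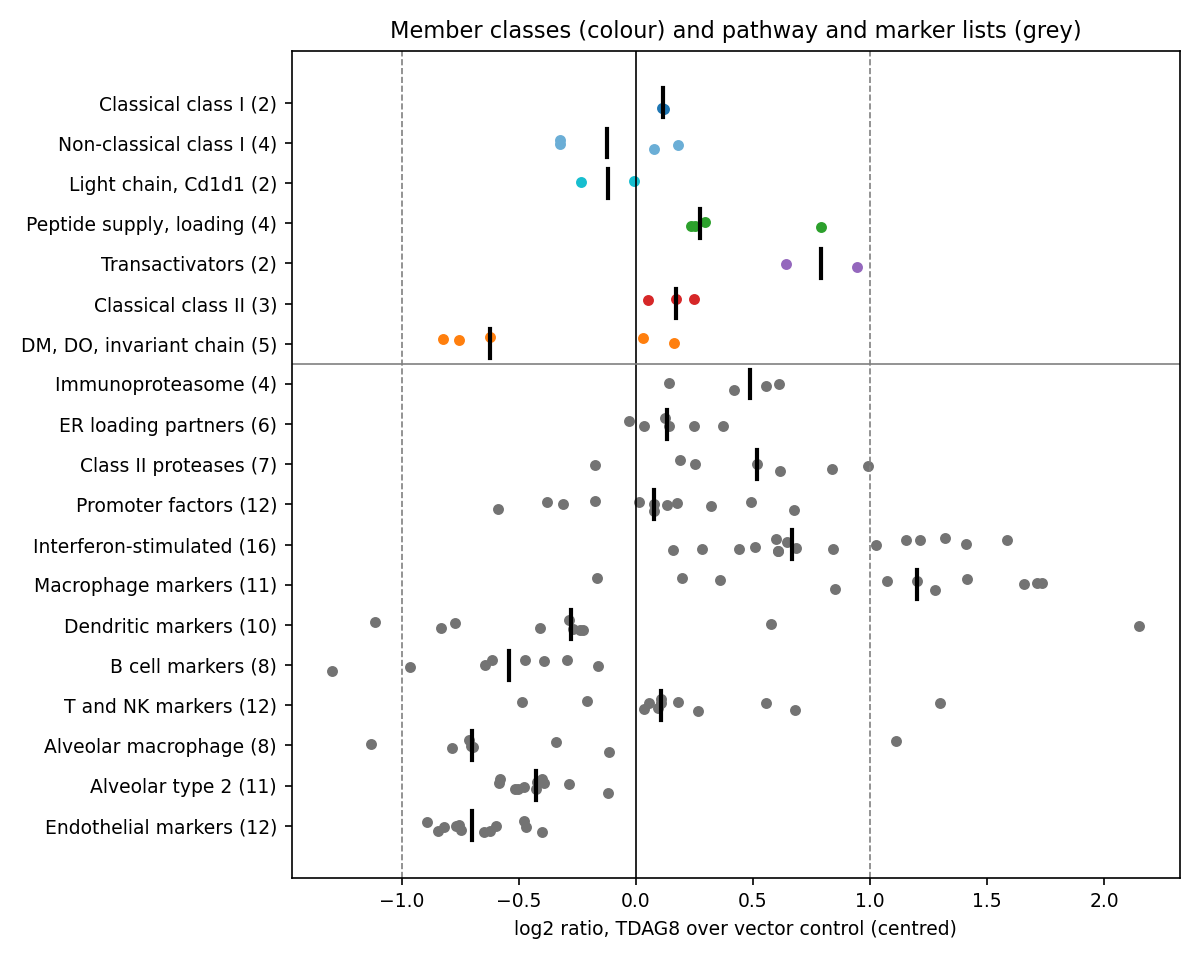
log2 ratio of TDAG8 over vector control for the genes of each member class (coloured) and of pathway and marker lists (grey), with the number of measured genes in brackets and the median as a black bar; dashed lines mark 2-fold. By the probe sets that stand for the genes, classical class I and II lie close to 0, while all 10 classical class I probe sets have a median of 0.29. The macrophage list has a median of 1.20 and the B cell list one of -0.54.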

How the data were processed

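Whole-lung RNA was measured on 2 Affymetrix arrays, each from 10 pooled lungs. Each probe set has 1 deposited intensity on a linear scale. Leaving out 2% of the 45101 probe sets at either end, both columns average 100, so both were scaled to 1 target before deposit. The labels do not name the software, and detection calls were not used here. After 64 control probe sets were set aside, 34945 probe sets had 1 gene symbol in the platform annotation, 932 had several and 9160 none. Of the 34945, 34741 were matched by gene identifier to RefSeq (GRCm38.p6), and all stood for 18193 genes. The files name no genome build, and only promoter windows carry coordinates.

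Values below the floor, the 50th percentile of each array, were raised to it, and a ratio with 1 such value is a bound. Ratios were centred on 11044 genes. With 1 array per group there was no test. The procedure was tested on simulated data with shifts larger than any log2 ratio of the member genes, so shifts of the size seen here were not simulated. The alternatives without centring and with an offset were not held to that check. Values were recomputed under 8 alternatives of centring, normalization, floor, offset and choice of probe sets, and 2 more were added after the values were seen. Named were all member genes above the floor and, from each list, the member with the highest mean level, those 2-fold different and the 2 with the largest differences above the floor on both arrays. Psmb9 was named afterwards for its shared promoter window, as were single probe sets. Long runs of 2-fold genes are given as counts. The members and lists were chosen with earlier results of these data known. Python 3.11.15, pandas 2.3.3, numpy 2.4.6 and statsmodels 0.14.6 (loess, span 0.3) were used.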

Additional observations from a re-analysis of the deposited data

How the results depend on the processing

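No paired analysis was possible because each group had 1 array, and for the same reason no replicate could be left out. The medians of both classes and their difference moved by less than 0.2 on the log2 scale under all 8 alternatives and with every probe set counted. That limit is larger than the medians and the difference themselves, so it says little about their size. The difference lay between 0.03, with quantile normalization, and 0.18, with every probe set counted. The class I median lay between 0.04 and 0.25, and that of class II between -0.02, without centring, and 0.07. No member gene was 2-fold higher under the 8 alternatives. One gene of 28, H2-Q2, was 2-fold lower with the floor at the 30th percentile, where 345 of 14857 measured genes were 2-fold lower. At the 1.5-fold limit 3 genes were higher and 3 lower, against 14.4% and 12.1% of all measured genes. With so few members these counts are no result about the group. Above 0 lay 13 of 23 member genes without centring, 13 of 21 without probe sets that can share sequence and 18 of 28 with the lower floor. All measured genes had medians of -0.06, -0.0015 and -0.01 in these settings. Their share above 0 was 49.9% in the main setting and was not computed for the alternatives. Of 180 recomputed values of single genes 9 moved by more than 0.2 and 6 changed sign, in 3 genes. With the mean over all probe sets H2-K1 was at 0.38, H2-D1 at 0.32 and Erap1 at 0.05. With the higher floor H2-T24 was at -0.10 as a bound. The other moved values, of Ciita, H2-Oa, H2-Ob and H2-Q2, stand with these genes, besides -0.60 for H2-Ob with an offset. For dim genes a shrinkage is built into the offset and into bounds at the higher floor. Nlrc5 stayed between 0.82 and 0.96, and Tap1 between 0.73 and 0.81. Leaving out probe sets that can share sequence removed H2-K1 and H2-Aa. The cause of shifts under the remaining alternatives was not tested.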

Other observations

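Signals and partners around presentation were read from the same lists. Of all measured genes 49.9% were above 0, 5.41% 2-fold higher and 1.19% 2-fold lower. With so few genes in each list, counts beside these shares are no result about a list. Ifng, the gene of interferon gamma, lay below the floor on both arrays, at 14.7 and 18.7. Of the 5 measured genes of its receptor and signalling 3 were above 0: Socs1, a feedback inhibitor, was at least 2.09-fold higher, Ifngr2 was at 0.38 and Jak1 at 0.22, while Ifngr1 was at -0.24. Cd86, a costimulator of T cells, went from 48.8 to 84.0, a log2 ratio of 0.84, Icosl was at -0.40, and Cd80 lay below the floor on both arrays. Marchf1, a ubiquitin ligase that removes class II and CD86 from the cell surface, went from 42.0 to 76.8, at 0.93, its relative Marchf8 was at -0.05 and Cd83, which opposes Marchf1, at 0.20.

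Class I-like molecules outside the MHC are the last list. Of 5 measured genes 4 were below 0, while 49.9% of all measured genes were above 0 and 5.41% 2-fold higher. With 5 genes such a count is no result about the list. The list had a median log2 ratio of -0.36, with Azgp1 at -0.54 and Fcgrt, the neonatal Fc receptor, at -0.18. Procr, the endothelial protein C receptor, was 2.44-fold higher, from 56.3 to 131.9, whereas all 12 genes of the endothelial list were below 0. Cd1d2 and Ulbp1 lay below the floor on both arrays.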
